A study of Mus musculus with 21 samples.

Results

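The liver of newborn wild-type mice was compared with the brain and the skin of the same mice. The libraries were those titled Liver WT 1 to 5, Brain WT 1 to 5 and Skin WT 1 to 5, which are 15 of the 21 libraries of the series. Bulk RNA sequencing had been run on each organ, 1 library per organ and mouse. The study was built around a Jak1 knock-in, whose 6 libraries were not analysed here. All 15 wild-type libraries came from C57BL/6 pups at age P0, that is on the day of birth, with no treatment named. The equal numbers were taken as 1 mouse per number, and the question asked was which genes were read higher, or lower, in the liver than in both other organs.

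At birth the mammalian liver does the work of 2 organs. Its hepatocytes secrete most proteins of the blood plasma and begin to feed the pup from its own stores once the placenta is gone. Between the hepatocytes lie islands of blood-forming cells, since the fetal liver makes red cells, platelets and white cells until the bone marrow takes over. Both programmes have well-known regulators: HNF1 and HNF4 proteins in hepatocytes, GATA1 and KLF1 in red cell precursors.

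The start regions of 8 genes that were higher in liver are shown because their letters hold a short element that one of these regulators is known to bind. Each run is the 150 bases just before the RefSeq transcription start, on the strand of the gene, in the GRCm38.p6 build, so each lies outside the transcript. The files had been counted on another build, mm9, and no position was carried between the builds. The 3 hepatocyte genes carry GTTAAT, the letters of 1 arm of the HNF1 site, in capitals on either strand. Alb encodes albumin, Afp its fetal relative alpha-fetoprotein and Fgb the beta chain of fibrinogen.
Alb, chr5:90460720-90460869, plus strand: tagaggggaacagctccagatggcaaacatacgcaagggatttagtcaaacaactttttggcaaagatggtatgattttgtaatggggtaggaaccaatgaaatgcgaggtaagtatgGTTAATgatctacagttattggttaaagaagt
Afp, chr5:90490564-90490713, plus strand: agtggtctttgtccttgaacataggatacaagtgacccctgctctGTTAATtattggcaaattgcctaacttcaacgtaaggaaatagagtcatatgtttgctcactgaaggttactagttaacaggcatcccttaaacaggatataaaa
Fgb, chr3:83049864-83050013, minus strand: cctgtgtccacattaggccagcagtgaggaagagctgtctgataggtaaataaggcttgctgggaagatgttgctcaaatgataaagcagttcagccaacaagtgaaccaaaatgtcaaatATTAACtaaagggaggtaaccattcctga

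The 5 red cell genes carry a GATA element, AGATAA or TGATAA, again in capitals on either strand. Alas2 makes the first enzyme of haem synthesis in red cell precursors, Klf1 and Gfi1b encode erythroid transcription factors, and Rhag and Kel encode blood group proteins of the red cell membrane.
Alas2, chrX:150547267-150547416, plus strand: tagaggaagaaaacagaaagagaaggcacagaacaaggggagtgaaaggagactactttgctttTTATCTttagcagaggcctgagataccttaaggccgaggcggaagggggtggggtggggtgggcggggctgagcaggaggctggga
Klf1, chr8:84901832-84901981, plus strand: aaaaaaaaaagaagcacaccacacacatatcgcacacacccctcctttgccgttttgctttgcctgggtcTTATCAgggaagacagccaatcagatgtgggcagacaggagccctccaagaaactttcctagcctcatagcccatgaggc
Rhag, chr17:40810999-40811148, plus strand: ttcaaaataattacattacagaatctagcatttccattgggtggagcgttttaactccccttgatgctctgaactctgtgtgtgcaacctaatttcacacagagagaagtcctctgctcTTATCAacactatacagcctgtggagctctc
Kel, chr6:41704326-41704475, minus strand: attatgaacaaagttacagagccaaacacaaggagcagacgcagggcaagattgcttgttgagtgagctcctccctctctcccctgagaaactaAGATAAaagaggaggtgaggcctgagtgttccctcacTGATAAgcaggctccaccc
Gfi1b, chr2:28621983-28622132, minus strand: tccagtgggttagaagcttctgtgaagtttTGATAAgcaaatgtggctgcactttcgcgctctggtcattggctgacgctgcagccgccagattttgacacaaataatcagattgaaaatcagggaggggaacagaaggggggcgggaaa

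Over the whole promoter table, which reaches from 250 bases before to 50 after each start, GTTAAT was found on either strand for 8.24% of 27025 genes. Of the hepatocyte genes higher in liver, 162 had an entry and 43 of these held it (26.5%), against 1 of 103 blood-forming genes (0.971%). A GATA element of either form was found for 21.0% of all genes. Of the red cell and haem genes higher in liver it was found for 18 of 41 (43.9%), and of those of the red cell membrane for 8 of 14 (57.1%). Over all blood-forming genes higher in liver it was found for 27 of 103 (26.2%), and over the hepatocyte genes for 43 of 162 (26.5%). Single hepatocyte lists ran from 2 of 13 (15.4%, complement) to 4 of 9 (44.4%, gluconeogenesis and glycogen). The 2 GATA forms were counted together, so that a gene with both counts once. These are matches of letters, given as a description, and the 8 genes above were picked because they hold one.

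Depth was similar in the 3 organs, from 26549326 to 38388133 reads counted on genes, with 30105720 to 38388133 in the livers. Fewer genes had a read in the livers, 16824 to 17388, than in the brains (17834 to 18520) or the skins (18036 to 18534). In some libraries many genes lay over 2-fold away from all 4 other libraries of that organ. For this, 1 was added to each CPM (counts scaled to a common library size, with TMM factors). These libraries included Brain WT 5 (300 genes above and 883 below), Skin WT 2 (341 and 91) and Liver WT 4 (108 and 30). Skin WT 5 (26 and 145) and Skin WT 4 (45 and 107) were also among them. Skin WT 2 held intestinal epithelial genes. The mucin Muc2 stood at 196 CPM there and at most at 0.678 CPM in the other skins, and Lypd8, which that epithelium secretes, at 340 CPM and at most at 0.0519 CPM. The study's methods describe the RNA of the skin samples as less intact than that of the liver samples. Each list count below was also made without Brain WT 5, Skin WT 2 or Liver WT 4 in turn, which moved it by at most 2 genes. Skin WT 4 and Skin WT 5 were left out only together with the other organs of their mouse.

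Of 17071 genes tested, 4023 (23.6%) were higher in liver than in both brain and skin, and 4287 (25.1%) were lower than in both, at an adjusted p under 0.05 in both contrasts of the edgeR quasi-likelihood test with the mouse as a block. The bar of an at least 8-fold difference in both contrasts was passed by 976 genes upwards (5.72%) and 1298 downwards (7.60%). Another 1502 genes lay between the other 2 organs. Against brain alone 80.4% of genes were called and against skin alone 67.6%, so most genes differ between whole organs. The median log2 fold change over all genes tested was -0.06 against brain and -0.09 against skin. This balance rests on the TMM scaling. With library totals alone both medians moved down, by -0.79 and -0.71, and the counts became 2139 higher and 8044 lower. The counts of each list that follows are to be read against these shares of all genes.

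The hepatocyte lists held 228 genes, and 222 passed the filter on low counts. Of these, 208 were higher in liver than in both organs, 2 were lower and 180 were at least 8-fold higher in both contrasts. Their median log2 fold change was 10.43 against brain and 8.79 against skin, or 10.21 and 8.79 with genes that had no read in the other organ set at their lower bound. All 5 livers lay above all 10 other libraries for 203 of them, as they did for 20.7% of all genes tested. Together the 228 genes took 38.7% ± 1.61 (SD, n = 5) of the reads on genes in liver, 0.342% in brain and 0.721% in skin. The blood-forming lists were also largely higher, with 132 of 157 genes tested higher, 3 lower and 76 at least 8-fold higher. They took 2.46% ± 0.32 of the reads in liver, against 0.305% in brain and 0.584% in skin. The adult globin genes of these lists had almost no counted reads, as given below, so the share leaves their RNA out. The whole globin list took 0.00198% of the liver reads. These lists include 25 genes of cell division, which any dividing cell uses. Without them 111 of 132 were higher, and the share was 2.14% in liver, 0.254% in brain and 0.356% in skin. In bulk tissue, more cells of a type and more RNA per cell cannot be told apart.

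**Figure D1:**
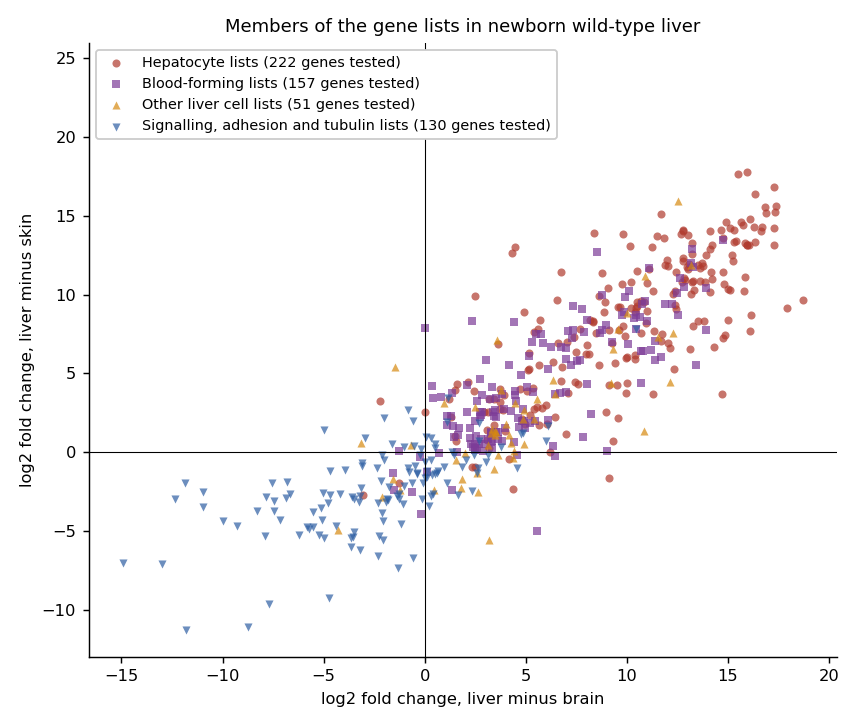
Log2 fold change of liver against brain (x axis) and against skin (y axis) for the tested genes of 4 groups of lists, 1 point per gene. Hepatocyte and blood-forming genes fill the upper right, where 208 of 222 and 132 of 157 passed both tests, and genes of signalling, adhesion and tubulins lie mostly in the lower left, where 70 of 130 did.

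Plasma proteins stood highest. By CPM per kilobase of exon (RPKM, which allows genes to be compared), the 10 highest genes in liver were Alb, Ahsg, Afp, Apoa1, H19, Fgb, Apoe, Fgg, Fga and Ttr. Of these, 9 encode secreted plasma proteins and H19 is an imprinted non-coding RNA of fetal tissues. Alb alone took 10.3% ± 0.612 of the liver reads and Afp 2.81% ± 0.277. The 10 highest genes of each library, by reads, took 28.3% ± 1.36 in liver, 3.08% in brain and 11.4% in skin.

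Alb was read at 127840, 146251, 149349, 144550 and 164519 CPM in Liver WT 1 to 5. In the brains it stood at 0.585, 5.73, 0.179, 1.88 and 1.85 CPM, and in the skins at 2.4, 4.5, 4.19, 26.1 and 13.2 CPM. The livers lay far above every other library. The log2 fold change was 16.70 ± 1.25 (SE) against brain and 14.32 ± 1.17 against skin, with adjusted p of 1.25e-07 and 5.59e-07 in edgeR. Afp, which adult liver no longer makes at high level, was read at 33122 to 45656 CPM in the livers and at most at 2.21 CPM elsewhere. Alb and Afp are neighbours on chromosome 5 of mm9, at 90889915 to 90905629 and 90919740 to 90937933. Per length, Alb stood at 71709 RPKM and Afp at 19097 RPKM.

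All 27 genes of plasma carriers and apolipoproteins were higher in liver, each at least 8-fold, and took 25.9% ± 1.28 of the liver reads. Fetuin-A (Ahsg), a carrier of calcium phosphate, was read at 39226 to 46380 CPM in the livers and at most at 1.51 CPM in the other organs. H19 was also read in skin, at 6237 to 12245 CPM against 23266 to 29158 CPM in liver. Its difference from skin, a log2 fold change of 1.35 ± 0.47 (adjusted p = 0.0225 in edgeR), was lost without mouse 3, without mouse 5, without Liver WT 4 alone, with library totals and by DESeq2. Ttr, the carrier of thyroid hormone, was even between the livers (6763 to 7309 CPM) and uneven between the brains, from 17.2 to 2043 CPM.

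Of 24 factors of coagulation and fibrinolysis, 23 were higher and each of these at least 8-fold. The exception was Pros1, protein S, a cofactor that restrains clotting. It was higher in liver than in brain by 2.50 and lower than in skin by -0.97 on the log2 scale. The 3 fibrinogen genes sit side by side on chromosome 3 of mm9, between 82811781 and 82853725, and were read at 15625 to 18975 CPM (Fga), 14058 to 18336 CPM (Fgb) and 10763 to 14576 CPM (Fgg) in the livers. In the other organs none passed 1.32 CPM. Serpinf2, which encodes the main inhibitor of plasmin, was even between the livers. It stood at 2156, 2276, 2432, 2256 and 2339 CPM in the livers and at no more than 0.0617 CPM elsewhere.

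Complement followed the same pattern, with 20 of 20 genes higher and 15 at least 8-fold. C3, the hub of the cascade, was the highest of them in liver at 12357 to 15817 CPM, but was read at 74.4 to 824 CPM in skin, so that its fold change against skin (5.28 ± 0.53, log2) was far below that against brain (12.32 ± 0.70). C8a and C8b, chains of the pore that complement drives into membranes, were read at 164 to 244 and 320 to 512 CPM in liver and never above 0.313 CPM in the other organs. Of 22 acute-phase genes tested 20 were higher. Apcs, serum amyloid P, stood at 1515 to 2384 CPM against at most 0.135 CPM. The acute-phase genes Saa1, Saa2 and Orm3 did not pass the filter on low counts, and Saa1 was read at 0.0425 to 0.47 CPM in the livers. Orm1, an orosomucoid, was read at 4.22 to 5.88 CPM in liver and at 5.98 to 28.2 CPM in skin, and was lower in liver than in skin by -1.64 ± 0.34 on the log2 scale.

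**Figure D2:**
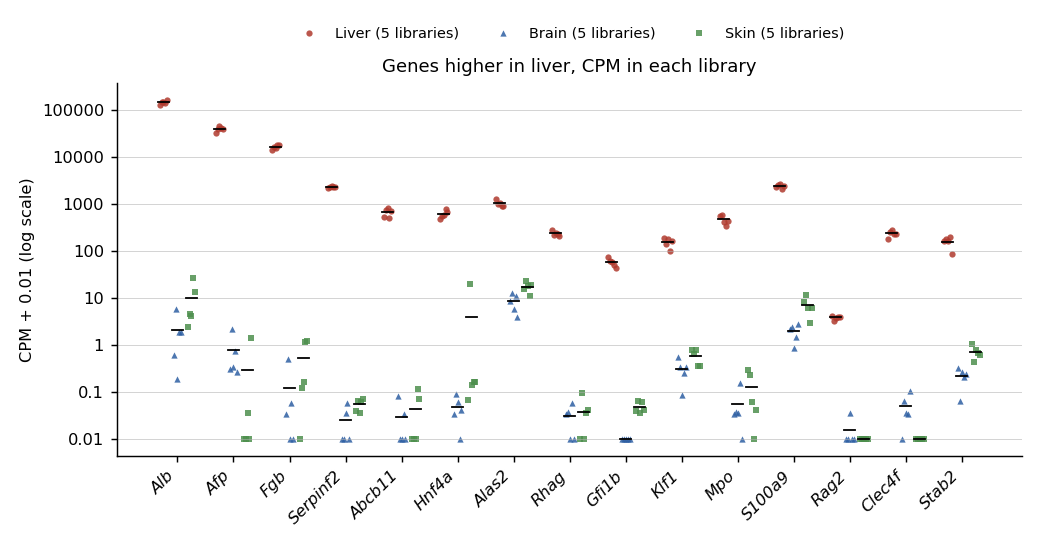
CPM of 15 genes higher in liver (log axis, 0.01 added) in each of 15 libraries, 5 per organ, with a bar at the mean of each organ. The livers lie above all other libraries for each gene, from Rag2 at 3.27 to 4.1 CPM to Alb at 127840 to 164519 CPM, and the single high skin point for Hnf4a is Skin WT 2.

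Metabolic genes of the hepatocyte were largely higher in liver. Of 27 genes of the urea cycle and amino acid breakdown 26 were higher in liver. Prodh2, which breaks down hydroxyproline, was read at 281, 304, 299, 304 and 311 CPM in the 5 livers, with 0 reads over the 5 brains and 2 over the 5 skins. That is at least 18991-fold higher than in brain, set against the limit of 3 reads over the group. Cps1, which brings ammonia into the urea cycle, was read at 2928 to 5772 CPM in liver against at most 2.57 CPM. Hal, which starts the breakdown of histidine, was the one tested member not called.

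Fatty acid oxidation and ketogenesis gave smaller differences, with 18 of 19 genes higher but 8 at least 8-fold, and a median of 3.85 against brain and 2.68 against skin. With library totals in place of TMM 15 of the 19 were called. Of 17 genes for bile acids 15 were higher, led by the bile salt pump Abcb11 at 527, 727, 826, 514 and 708 CPM in the livers and at most 0.104 CPM elsewhere. The enzyme Cyp7b1, which serves the alternative route of bile acid synthesis, was lower in liver than in both, at 0.383 to 1.58 CPM against 5.28 to 8.33 CPM in brain and 4.33 to 7.98 CPM in skin. Its log2 fold change was -3.04 ± 0.35 against brain and -2.74 ± 0.34 against skin, with adjusted p of 5.48e-06 and 2.15e-05 in edgeR.

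Drug-metabolising genes, 29 of 31 higher, included fetal-type and adult-type members. Cyp3a16, a cytochrome known from fetal and newborn mouse liver, was read at 204 to 340 CPM with no read over the 5 brains and 1 over the 5 skins. Cyp1a2, which rises later in life, was called higher too but stood at 0.494 to 5.07 CPM. Many of these genes have close copies. Stretches of 75 bases shared with another coding gene made up 95.2% of those of Cyp3a41a, 57.7% for Ugt1a1 and 40.0% for Cyp2c69. For the acute-phase gene Serpina1e the share was 19.4%. The values of these genes are uncertain to that extent. Over all hepatocyte lists 4 genes reached at least 50%.

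Among 22 transcription factors of the hepatocyte 18 were higher in liver. Hnf4a, a nuclear receptor central to hepatocyte identity, was read at 489, 558, 580, 771 and 665 CPM in the livers and at most at 0.0807 CPM in the brains. In 4 skins it stood at or below 0.156 CPM, and in Skin WT 2 at 19.5 CPM, so that the fold change against skin was 10.26 with that library and 12.24 without it. Foxa2 and Nr1h4 were also over 10 times higher in Skin WT 2 than in any other skin, and each was called higher in liver with or without it. Cebpa, which fat and skin cells also use, stood at 390 to 488 CPM in liver and 130 to 320 CPM in skin, with a log2 fold change of 1.15 ± 0.19 against skin. Zhx2, which is known to silence Afp after birth, was lower in liver than in both organs, at 7.01 to 8.67 CPM against 16.8 to 20 CPM in brain and 23.3 to 32.3 CPM in skin. Its log2 fold change was -1.28 ± 0.13 against brain and -1.95 ± 0.13 against skin (adjusted p of 1.4e-06 and 9.18e-08, edgeR). Foxa1, Tbx3 and Gata6 were not called.

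The livers differed from each other in genes that make glucose. Of 13 genes of gluconeogenesis and glycogen 12 were higher in liver, yet their spread between livers was wide. G6pc, which releases glucose from the cell, was read at 988, 1443, 284, 3478 and 331 CPM in Liver WT 1 to 5. Pck1, which commits carbon to glucose, was read at 1225, 1895, 257, 4726 and 306 CPM. Both were highest in Liver WT 4 and lowest in Liver WT 3 and 5, with 3 and 5 close to each other. Ppargc1a, a coactivator of both genes, stood at 21.3, 19.4, 23.7, 154 and 33.9 CPM, high in Liver WT 4 only. It was the one member not called, with a log2 fold change against brain of 0.03 ± 0.46. Tat, which breaks down tyrosine, was read at 244, 307, 152, 1036 and 114 CPM, and Cyp7a1, the rate-limiting enzyme of bile acid synthesis, at 132, 144, 109, 614 and 203 CPM. Alb varied far less over the same livers. The difference of G6pc from the other organs did not rest on that liver. The smaller of its 2 log2 fold changes was 14.10 with Liver WT 4 and 14.16 without it. That of Pck1, against skin, went from 3.70 to 2.92 and was still called.

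**Figure D3:**
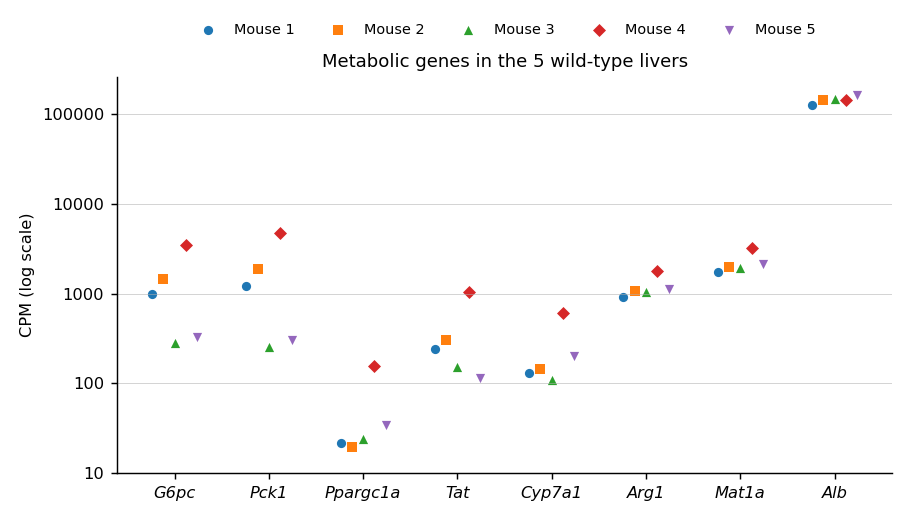
CPM (log axis) of 8 metabolic genes in the 5 wild-type livers, 1 symbol per mouse, picked after their values were seen. G6pc and Pck1 spread from 284 to 3478 and from 257 to 4726 CPM, with mouse 4 on top and mice 3 and 5 lowest, while Alb spreads from 127840 to 164519 CPM.

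Red cell genes made up several of the blood-forming lists. All 19 genes of haem synthesis and iron uptake were higher in liver, 24 of 28 of the red cell membrane and its enzymes, and 12 of 14 erythroid transcription factors. Each called gene of the last group and of the membrane list had all 5 livers above the 10 other libraries. Alas2 was read at 1256, 1021, 1064, 923 and 921 CPM in the livers, at 3.93 to 13 CPM in the brains and at 10.9 to 23.2 CPM in the skins. Its log2 fold change was 6.99 ± 0.34 against brain and 5.93 ± 0.32 against skin (adjusted p of 2.69e-09 and 2.08e-08, edgeR).

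Slc4a1, the anion exchanger band 3 of the red cell membrane, was read at 2320 to 3220 CPM in liver, 0.231 to 0.888 CPM in brain and 1.95 to 3.43 CPM in skin. Rhag, whose promoter is printed above, stood at 276, 222, 244, 229 and 212 CPM in the livers and never above 0.0829 CPM elsewhere. Cldn13, a claudin of mouse red cell precursors, was read at 84.1 to 130 CPM with no read in the 5 brains, at least 6657-fold higher. The 4 members that were not called, Dmtn, Aqp1, Add2 and Tmod1, are also made in other cell types.

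Gfi1b was read at 75.7, 61.1, 58.2, 51.3 and 43.7 CPM in the livers, with no read over the brains and 7 over the skins. Klf1 was read at 185, 138, 176, 98.4 and 161 CPM and reached at most 0.763 CPM elsewhere. Its log2 fold change was 8.98 ± 0.31 against brain and 8.07 ± 0.29 against skin. Gata1 stood at 74.7 to 120 CPM in liver and at 1.5 to 3.92 CPM in skin. Bcl11a, which silences fetal globin genes, was not called. Its log2 fold change was -1.26 ± 0.21 against brain and 0.05 ± 0.21 against skin.

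The globins themselves could not be read. Over all 15 libraries Hba-a1 and Hbb-b1 had 3 reads each and Hba-a2 and Hbb-b2 none. Reads matching several places had been tallied apart, and made up 23.1% to 25.4% in liver, 20.5% to 24.0% in brain and 20.7% to 22.5% in skin. Of the 75-base stretches of Hba-a1, 61.3% also occurred in another coding gene, and for Hba-a2, Hbb-b1 and Hbb-b2 82.0%, 45.2% and 56.6%. Whether this accounts for the missing reads was not tested. The embryonic chains were read: Hbb-y at 2.82 to 7.37 CPM and Hba-x at 2.21 to 6.56 CPM in liver, both highest in Liver WT 4, and below 0.5 CPM elsewhere.

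White cell lineages were present as well. All 19 genes of neutrophil granules were higher in liver, 18 of them at least 8-fold and 18 without Skin WT 2. Mpo, the peroxidase of primary granules, was read at 560, 592, 417, 340 and 427 CPM in the livers and at no more than 0.282 CPM elsewhere. S100a9, a chain of calprotectin, stood at 2050 to 2669 CPM against at most 11.6 CPM. Of 14 early B lineage genes tested 13 were higher. Rag2, of the recombinase that builds antigen receptors, was read at 4.1, 3.27, 3.81, 4 and 3.95 CPM in the livers, with 1 read over the brains and none over the skins. The factor Ebf1 was the exception and was lower than in both, at 13.1 to 20.3 CPM against 19.5 to 85.9 CPM in brain and 76.9 to 97.2 CPM in skin. Ebf1 is also known from fat and connective tissue, and 1 liver overlapped the brains.

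Of 15 genes of megakaryocytes and platelets 11 were higher, and 13 without Brain WT 5. Gp6, the platelet collagen receptor, was read at 2.92 to 6.8 CPM in liver, with 3 reads over the brains and 2 over the skins. Pf4, platelet factor 4, was the highest per length, at 148 CPM ± 30.6 (SD, n = 5), and was not separated from skin (95.1 CPM ± 8.87, log2 fold change 0.62 ± 0.36, adjusted p = 0.146 in edgeR). Gp6, Pf4, Klf1 and Gata1 were all lowest in Liver WT 4 among the livers, as was Treml1, of platelet granules, at 14.7 CPM against 29.9 to 31.7 CPM in the other livers.

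Genes of stem and progenitor cells gave a mixed picture. Of 18 tested 8 were higher, 2 were lower and 8 were not called, with a median of 2.10 against brain and 0.12 against skin. Kit, the receptor for stem cell factor, stood at 48.9 to 66.7 CPM in liver, 46.8 to 92 CPM in brain and 60.9 to 82.8 CPM in skin. Meis1 and Gata2 were lower in liver than in both. Gata2 was read at 5.62 to 8.89 CPM against 7.61 to 17.8 CPM in brain, a log2 fold change of -0.62 ± 0.19 (adjusted p = 0.0105, edgeR) that was lost without mouse 2.

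Of 25 genes of cell division 21 were higher in liver. Mki67, a mark of cycling cells, was read at 1490, 1162, 1241, 1188 and 1087 CPM in the livers, 18.7 to 46 CPM in the brains and 255 to 349 CPM in the skins. The median was 3.26 against brain and 0.84 against skin, so that skin lay much nearer. With library totals in place of TMM 10 of the 25 were called, and 6 passed a test against a 2-fold difference.

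**Figure D4:**
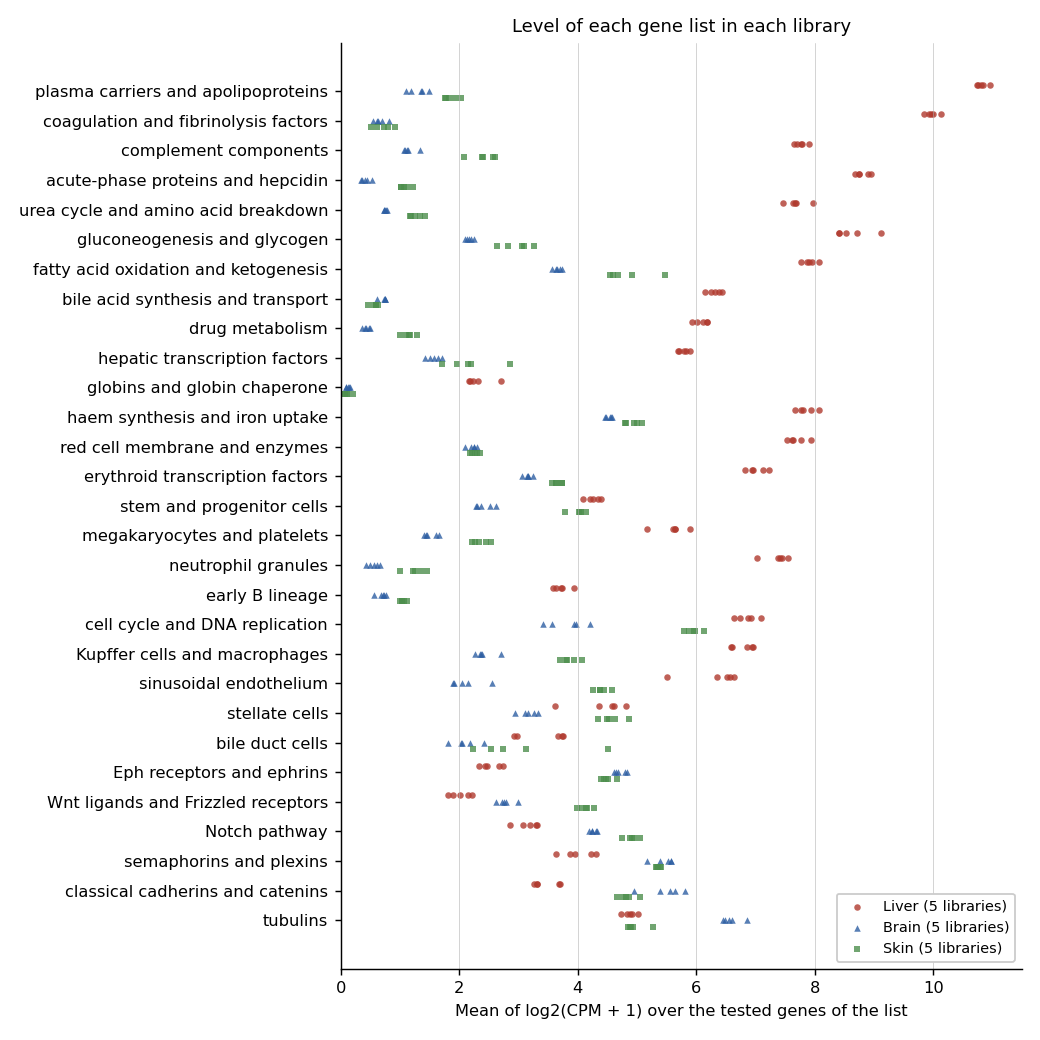
Mean of log2(CPM + 1) over the tested genes of each list (x axis) in each of 15 libraries, 5 per organ. The livers stand apart on the right for the hepatocyte, red cell, neutrophil and Kupffer lists, overlap the skins for stellate and bile duct genes, and stand on the left for Eph, Wnt, Notch, semaphorin and cadherin genes.

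Other cells of the liver were read too. Of 19 genes of Kupffer cells and macrophages 17 were higher. Clec4f, a lectin of Kupffer cells, was read at 182, 258, 279, 232 and 234 CPM in the livers, at most at 0.0959 CPM in the brains and not at all in the skins, which is at least 14321-fold. Vsig4, a complement receptor of resident macrophages, stood at 30.6 to 37.5 CPM with no read over the brains. Among 12 genes of sinusoidal endothelium 6 were higher. The scavenger receptor Stab2 was read at 159, 182, 167, 199 and 86.3 CPM, against at most 1.04 CPM elsewhere.

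Of 12 stellate cell genes 4 were higher and 3 lower, where 23.6% and 25.1% of all genes tested were. No trait of the list is read from these counts. Hgf, the growth factor that stellate cells supply to hepatocytes, was read at 20, 20.4, 16.7, 20.5 and 6.16 CPM in the livers. Rgs5, which pericytes of other organs carry, was read at 0.213 to 5.26 CPM in liver against 9.4 to 57.1 CPM in brain and 47.5 to 62.8 CPM in skin. Liver WT 5 was the lowest of the livers for Stab2, Hgf and Rgs5. Of bile duct genes 2 of 8 were higher (Spp1 and Tspan8), a share near that of all genes, and Sox9 was lower. Tspan8 was not called without the mouse as a block. Markers of other organs were counted too. The 12 neuronal genes took 0.00131% of the liver reads, the 11 epidermal genes that had a row 0.00481% and the 9 genes of skeletal muscle 0.00197%. The 9 genes of dermal fibroblasts took 0.0572% to 0.168% in liver and 6.81% to 9.74% in skin. The 13 genes of pancreas, gut and adrenal took 0.00154% in liver, 0.000434% in brain and 0.00622% in skin. Of the 6 of these that were tested, Fabp2, a fatty acid carrier of the gut, was higher in liver, at 9.80 to 21.8 CPM against at most 0.138 CPM elsewhere, and the steroid enzyme Cyp11a1 was lower. Vil1, a protein of the gut brush border, was called higher as well without Skin WT 2, where it stood at 25.03 CPM.

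Among genes with a mean of at least 10 CPM in both brain and skin, those lower in liver were led by regulators with no read there. Tfap2b, Irx1, Irx2 and Sox21, transcription factors used among others in ectoderm and nervous system, had 0 reads over the 5 livers, as did Golga7b. Tfap2b stood at 47.7, 149, 149, 118 and 87 CPM in the brains and at 33.2, 34.6, 25.1, 38.6 and 30.2 CPM in the skins. That is at least 4369-fold higher in brain and at least 1284-fold higher in skin than the limit that 3 reads over the livers set. Irx2 was at least 1292-fold higher in brain and at least 4812-fold in skin. Eef1a2, the elongation factor of neurons and muscle, had 3 reads over the 5 livers and stood at 280 to 356 CPM in brain and 11.6 to 76.5 CPM in skin. The ratio was 12163 in brain, with a 95% counting interval from 4162 to 58980.

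**Figure D5:**
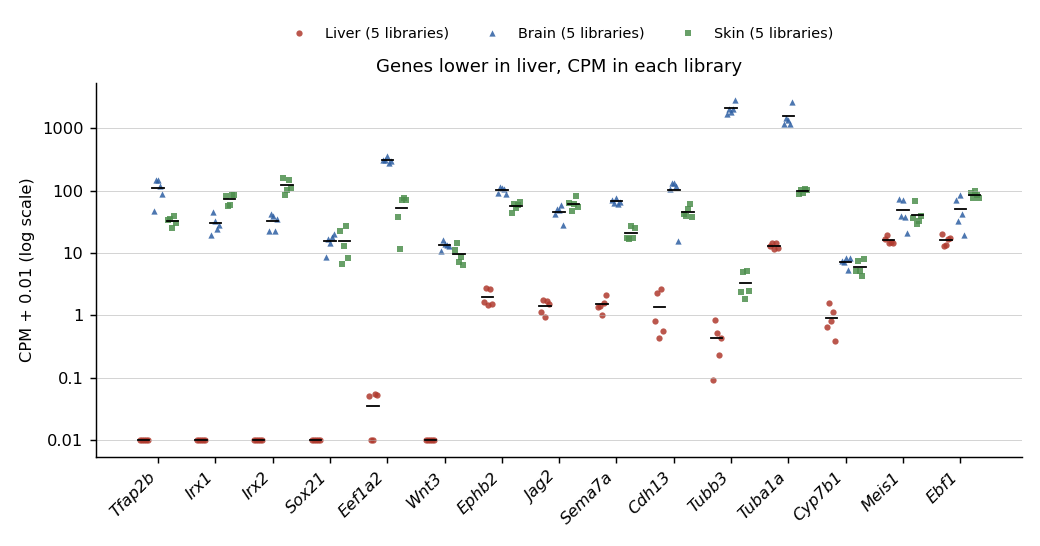
CPM of 15 genes lower in liver (log axis, 0.01 added) in each of 15 libraries, 5 per organ, with a bar at the mean of each organ. Tfap2b, Irx1, Irx2, Sox21 and Wnt3 sit at the floor of the axis in all 5 livers, and the organs lie closest for Cyp7b1, Meis1 and Ebf1.

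Some members of the families that guide how cells meet and sort were lower as well. Of 21 Eph receptors and ephrins 14 were lower and 2 higher in liver, where 25.1% of all genes tested were lower. For 12 of the 21 all livers lay below all other libraries, as they did for 19.7% of all genes. Ephb2 was read at 1.61, 2.75, 1.46, 2.61 and 1.49 CPM in the livers, 88.3 to 114 CPM in the brains and 44.1 to 66.9 CPM in the skins. Its log2 fold change was -5.71 ± 0.18 against brain and -4.86 ± 0.18 against skin. Epha1 went the other way, at 53.8 to 82.7 CPM in liver against at most 1.71 CPM in brain and 11.7 to 40.6 CPM in skin.

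Of 29 Wnt ligands, Frizzled receptors and co-receptors 16 were lower and 2 higher. The ligand Wnt3 had no read in the livers, against 10.9 to 16 CPM in brain and 6.29 to 14.4 CPM in skin. The co-receptor Lrp5 was higher in liver, at 214, 248, 237, 265 and 255 CPM against 6.39 to 10.5 and 94.9 to 120 CPM, a log2 fold change of 4.75 ± 0.16 and 1.17 ± 0.14. In the Notch pathway 9 of 17 were lower. The ligand Jag2 was read at 0.941 to 1.76 CPM in liver and at 27.7 to 81.6 CPM in the other organs.

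Of 31 semaphorins and plexins 17 were lower and 2 higher, and of 18 cadherins and catenins 9 were lower. Sema7a was read at 0.988 to 2.13 CPM in liver, 61.7 to 76 CPM in brain and 17 to 27.2 CPM in skin. Sema4a and Sema4g were the 2 that were higher, Sema4a at 89 to 105 CPM against 38.5 to 51 and 21.1 to 28.3 CPM. Cdh13, a cadherin held to the membrane by a lipid anchor, was read at 0.423 to 2.65 CPM in liver and at no less than 15.6 CPM in any other library.

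Of 14 tubulins 5 were lower and 3 higher, where 25.1% and 23.6% of all genes tested were. No trait of the family is read from these counts. Some members share sequence. Of the 75-base stretches of Tuba1a 49.6% also occurred in another coding gene, and of those of Tuba1b 58.8%. Tubb3, the neuronal beta-tubulin, was read at 0.0805, 0.844, 0.518, 0.225 and 0.425 CPM in the livers, 1691 to 2846 CPM in the brains and 1.84 to 5.11 CPM in the skins. Tubb1, the beta-tubulin of platelets, was read at 81.9, 68.5, 80, 46.5 and 77.8 CPM in the livers and at most 0.367 CPM elsewhere. Tubb4b was called higher by 0.50 log2 at least, and with library totals in place of TMM turned to -0.20.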

How the data were processed

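RNA had been purified with an RNeasy kit and sequenced in pairs on a NovaSeq instrument after TruSeq v2 library preparation, which does not mark the strand. The authors trimmed adapters, aligned the reads to mm9 with TopHat2 and deposited raw counts per gene symbol. HTSeq is named in the submitters' processing notes, with no settings, so a gene and an overlapping or antisense gene cannot be told apart. The 5 summary lines of each file were dropped, which left 24391 gene rows.

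The set of libraries and the gene lists were chosen with earlier results of these data known. The 15 wild-type libraries were fitted together in edgeR 4.0.16 under R 4.3.3: filterByExpr, TMM factors (0.68 to 0.75 in liver, 1.11 to 1.26 in the other organs), and the quasi-likelihood test with mouse and tissue as terms. P-values were adjusted by Benjamini-Hochberg over all 17071 genes tested, and a gene was called where both contrasts passed 0.05 in 1 direction. The SE printed with a log2 fold change is its size over the square root of the F statistic of that test. It is derived from the test and is not a separate estimate. CPM values were scaled by TMM, and RPKM used exon lengths of an mm9 annotation, found for 84.6% of gene rows. Whether the pups were littermates is not given, so how far the p-values reach beyond these 5 mice cannot be told. With the mouse as a block, they rest on how the organ differences varied among these mice.

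Same-numbered libraries of different organs deviated together more than others did in all 15 pairs, with r of 0.00198 to 0.188. Y-linked genes summed to 141 to 221 CPM in mouse 3 in each organ and to at most 2.25 CPM in the others, so 1 pup was male.

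For each list the 3 called genes with the largest smaller-of-both fold change and the gene highest per length were named. So was every member called lower. Over all genes, the 10 highest per length and the 10 with the largest difference in each direction were named. The genes of largest difference were taken among those with a mean of at least 10 CPM. This mean was in liver for genes higher there, and in both brain and skin for genes lower in liver. Some genes that this rule names are not reported here. Genes named outside this rule, such as Pck1, Ppargc1a, Tat, Cps1, Slc4a1, Gata1, Kit, Orm1, Cyp1a2 and those of Skin WT 2, were chosen after their values were seen. On simulated counts for 16884 genes of these libraries, edgeR recovered 52.2% of 2-fold, 83.6% of 4-fold and 92.4% of 8-fold changes, with 1 false call. Only 200 genes were changed there, in liver alone. All other genes had the same level in every organ, with no effect of the mouse. Most genes differ between the real organs, so the 1 false call does not measure errors that come from the scaling. Alternatives were DESeq2 1.42.0 and its size factors, library totals, no filter, no block, a 2-fold test, a p of 0.01 and each mouse left out. The fits without Skin WT 2, Brain WT 5 or Liver WT 4 were added after seeing the data. Intervals cover counting error only.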

Additional observations from a re-analysis of the deposited data

Results flagged for a closer look

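In 192 groups of 5 libraries, 1 per organ and gene, the highest or lowest library was set against the others by Dixon's test. The genes were those named in the text above, with a mean of at least 1 CPM. The highest or lowest library stood apart in 21 groups. Tff3, Igf2 and Dlk1, named only below, were left out. For them Skin WT 2 (Tff3), Brain WT 2 (Igf2, 723 CPM) and Skin WT 5 (Dlk1, 3108 CPM) also stood above the others. Chance alone gives about 1 in 20 groups, and some of the genes had been named because 1 library stood apart, so the count of 21 is not to be read against chance. The libraries named above as standing apart hold most of them.

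Skin WT 2 was the highest skin for Lypd8 (340 CPM), Muc2 (196 CPM), Hnf4a (19.5 CPM), Saa1 (11.4 CPM), Vil1 (25.03 CPM), Meis1 (68.4 CPM) and Sema4g (52.4 CPM). The other skins reached at most 39.2 CPM for Meis1 and 26.9 CPM for Sema4g. Meis1 and Sema4g were called in liver with and without that library.

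Liver WT 4 was the highest liver for Tat (1036 CPM), Cyp7a1 (614 CPM), Ppargc1a (154 CPM) and Hbb-y (7.37 CPM), and the lowest for Treml1 (14.7 CPM). The other livers ran from 114 to 307 CPM for Tat and from 109 to 203 CPM for Cyp7a1. Liver WT 5 was the lowest liver for Hgf (6.16 CPM) and the highest for C8a (244 CPM).

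Brain WT 5 was the highest brain for Bcl11a (171 CPM) and Golga7b (166 CPM) and the lowest for Cdh13 (15.6 CPM, against 106 to 135 CPM). Among the skins, Skin WT 5 was lowest for Zhx2 (23.3 CPM), Skin WT 4 highest for Gata1 (3.92 CPM) and lowest for Gata2 (29.8 CPM), and Skin WT 3 highest for Ppargc1a (9.41 CPM). The part of these libraries in the results was not tested beyond the counts without them.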

How the results depend on the processing

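The scaling and the 2-fold test moved the counts of genes higher and lower by over 1.5 times. With library totals in place of TMM, 2139 genes were higher in liver than in both organs, 21.0% of those called in both, and 8044 were lower, against 4023 (48.4%) and 4287. Tubb4b then turned from 0.50 to -0.20 on the log2 scale. The cause was not tested. The 10 highest genes took 28.3% of the reads in liver, 3.08% in brain and 11.4% in skin. Tested against a 2-fold difference, 1990 genes were higher and 2340 lower, with 9136 called against brain and 6213 against skin. Without the mouse as a block (no pairing of the organs) 3962 were higher and 4323 lower, and 3916 and 4186 of the original calls were kept. With 1 mouse left out the counts ran from 3641 to 4071 and from 3874 to 4332. Without Skin WT 2 they were 3884 and 4084, without Brain WT 5 4321 and 4498, and without Liver WT 4 3802 and 4180. DESeq2 gave 4109 and 4455. The 208 hepatocyte genes ranged from 201 to 210 and the 132 blood-forming genes from 112 to 134 over all settings. Depth limits the genes with no read in an organ, where a group of 5 libraries allows up to 0.0252 CPM in liver, 0.0158 CPM in brain and 0.0166 CPM in skin.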

Other observations

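Growth genes of the fetus, picked after their values were seen, followed no single pattern. Igf2, the fetal growth factor that neighbours H19, was read at 7748, 8932, 10168, 10401 and 12425 CPM in the livers, at 111 to 723 CPM in the brains and at 3536 to 5176 CPM in the skins. It was called higher in liver than in both organs, with a log2 fold change of 5.30 ± 0.44 against brain and 1.21 ± 0.37 against skin. Gpc3, a heparan sulfate proteoglycan of fetal tissues, was read at 998 to 1304 CPM in liver and at 811 to 1320 CPM in skin, and did not separate these organs (0.14 ± 0.23). Dlk1, another imprinted gene, stood at 198 to 407 CPM in liver, at 34.2 to 57.5 CPM in brain and at 1967 to 3108 CPM in skin, so that liver lay between them. Tff3, a peptide best known from the gut, was read at 234 to 362 CPM in all 5 livers and at most at 0.244 CPM in the brains. Among the skins it was read in Skin WT 2 alone, at 107 CPM.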
